A study of Mus musculus with 3 samples.

Results

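Pdha1 and Pdha2, Rpl10 and Rpl10l, Cstf2 and Cstf2t, and Rbmx and Rbmxl2 are 4 pairs of an X-linked parent gene and an autosomal retrogene of testis. These 8 genes were taken by symbol from the 32285 genes of the deposited gene lists, and they were chosen because the parent is known to be low in meiosis while the retrogene is present. The pattern across meiosis is therefore described here and not tested. Cells came from dissociated testes of adult mice of strain C57BL/6N. There were 2 wildtype libraries of 1 mouse each, called wildtype 1 and wildtype 2, and 1 library that pooled 2 mice with a conditional Tex10 knockout. Which Cre line was used and which part of Tex10 was removed are not given in the labels, so the cell types meant to lose the gene are not known from them. Values are counts of unique molecular identifiers (UMIs), each of which marks 1 captured RNA molecule near its 3′ end.

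A retrogene arises when a messenger RNA is copied back into DNA and inserted elsewhere in the genome, which leaves a copy without introns. During the pachytene stage of male meiosis the X and Y chromosomes are packed into the sex body and transcriptionally silenced, and part of the silencing persists in round spermatids. Autosomal copies of X-linked housekeeping genes are thought to supply the missing product in that interval, and male mice without Rpl10l, Cstf2t or Rbmxl2 have been described as infertile.

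The proteins of the pairs have distinct tasks. Pdha1 and Pdha2 encode the E1 alpha subunit of the pyruvate dehydrogenase complex, which feeds pyruvate into the citric acid cycle. Rpl10 and Rpl10l encode a protein of the large ribosomal subunit. Cstf2 and Cstf2t encode the RNA-binding subunit of the cleavage stimulation factor, which helps to set where a messenger RNA is cut and polyadenylated. Rbmx and Rbmxl2 encode related nuclear RNA-binding proteins that act in splicing.

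In GENCODE M21 on GRCm38, all 8 genes are protein-coding. Pdha1 (ENSMUSG00000031299) spans chrX:160122209-160138413 (minus strand) and has 11 exons. Pdha2 (ENSMUSG00000047674) is a single exon at chr3:141210004-141212355 (minus). Rpl10 (ENSMUSG00000008682) spans chrX:74270812-74273135 (plus) with 6 exons. Rpl10l (ENSMUSG00000060499) has 1 exon at chr12:66283379-66284401 (minus). Cstf2 (ENSMUSG00000031256), at chrX:134059187-134086819 (plus), has 14 exons. Cstf2t (ENSMUSG00000053536) has 1 exon at chr19:31082837-31087069 (plus), within the span of Prkg1 on the other strand. Rbmx (ENSMUSG00000031134), at chrX:57383530-57393036 (minus), has 9 exons. Rbmxl2 (ENSMUSG00000073894) is 1 exon at chr7:107209445-107210916 (plus). Each retrogene thus lacks the introns of its parent. The aligned coding bases of parent and retrogene were identical at 84.7% for Rpl10 and Rpl10l, 75.6% for Pdha1 and Pdha2, 75.5% for Cstf2 and Cstf2t, and 68.1% for Rbmx and Rbmxl2.

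Counting at the 3′ end separates these genes to different degrees. Of the words of 31 bases in the last 500 bases of their coding transcripts, Pdha1, Pdha2 and Cstf2t shared 0 with transcripts of any other gene, and Cstf2 shared 0.16% with a microRNA inside it. The Rpl10 end shared 96.1% of its words with 23 other genes, led by processed pseudogenes such as Rpl10-ps3, so the level of Rpl10 is uncertain. Rpl10-ps3, which has its own row in the files, stood between 2.64 and 7.20 CPM in spermatogonia. For Rpl10l the shared part was 15.1%, for Rbmx 4.71% (Rbmxl1 among others) and for Rbmxl2 4.47%. The genes sharing words with a retrogene, Gm14460 for Rpl10l and Lims2 for Rbmxl2, did not include its parent. Pdha1 and Cstf2 also overlap a gene on the other strand (Map3k15 and Nox1). The use of strand in counting is not given in the sources used here. Whether reads of such overlapping genes were kept apart is therefore not known from them.

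The upstream sequence is shown because a retrogene usually inserts without the promoter of its parent, and Cstf2 is added as the parent that was high again after meiosis. Each line gives the 250 bases before the start site, 5′ to 3′ on the gene's strand, from RefSeq on GRCm38.p6. Positions are chr3:141212356-141212605 (minus) for Pdha2, chr12:66284402-66284651 (minus) for Rpl10l, chr19:31082591-31082840 (plus) for Cstf2t, chr7:107209195-107209444 (plus) for Rbmxl2 and chrX:134058926-134059175 (plus) for Cstf2. Capitals mark matches to the 5 motifs searched. The CRE core was searched as TGACG on both strands. The MYB core was searched as CAGTT on both strands. The X-box core was searched as GTTGCC on both strands. The GC box was searched as GGGCGG on both strands. The TATA box was searched as TATAAA on the gene's own strand.
Pdha2 upstream: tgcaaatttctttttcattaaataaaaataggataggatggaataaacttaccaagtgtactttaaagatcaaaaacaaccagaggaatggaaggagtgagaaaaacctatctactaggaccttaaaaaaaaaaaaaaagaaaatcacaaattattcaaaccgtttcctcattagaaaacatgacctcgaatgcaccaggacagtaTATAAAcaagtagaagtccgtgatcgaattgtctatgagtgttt
Rpl10l upstream: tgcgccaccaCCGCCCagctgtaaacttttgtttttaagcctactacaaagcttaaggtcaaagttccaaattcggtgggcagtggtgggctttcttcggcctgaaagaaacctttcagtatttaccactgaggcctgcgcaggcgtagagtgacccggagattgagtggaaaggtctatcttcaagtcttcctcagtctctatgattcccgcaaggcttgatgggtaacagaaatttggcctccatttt
Cstf2t upstream: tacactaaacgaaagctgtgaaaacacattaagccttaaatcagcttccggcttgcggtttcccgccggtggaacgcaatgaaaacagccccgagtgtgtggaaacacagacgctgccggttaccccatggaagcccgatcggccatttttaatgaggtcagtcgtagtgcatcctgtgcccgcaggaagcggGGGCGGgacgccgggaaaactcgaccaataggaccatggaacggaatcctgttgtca
Rbmxl2 upstream: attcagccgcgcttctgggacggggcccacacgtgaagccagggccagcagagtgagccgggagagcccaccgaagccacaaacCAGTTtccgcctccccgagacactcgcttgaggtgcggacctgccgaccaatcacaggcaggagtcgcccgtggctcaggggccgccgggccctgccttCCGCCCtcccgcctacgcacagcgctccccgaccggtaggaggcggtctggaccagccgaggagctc
Cstf2 upstream: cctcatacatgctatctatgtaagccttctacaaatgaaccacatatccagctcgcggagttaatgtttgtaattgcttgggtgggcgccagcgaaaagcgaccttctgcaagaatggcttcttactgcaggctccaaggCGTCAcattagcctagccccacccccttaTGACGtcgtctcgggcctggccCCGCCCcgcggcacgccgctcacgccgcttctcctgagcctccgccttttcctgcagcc

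These 5 sequences share no single motif of the set. The GC box was found upstream of Rpl10l, Cstf2t, Rbmxl2 and Cstf2, at -240, -57, -67 and -59 bases from the start, upstream of Rpl10 at -226 bases, and in 32.7% of the 32851 RefSeq promoters at this length. Pdha2 alone of the 8 genes had a TATA box, at -44 bases, a match found in 7.59% of promoters. Cstf2 held CRE cores at -110 and -81 bases, and 17.8% of promoters hold at least 1. A MYB core lay at -166 bases in Rbmxl2 and at -158 bases in Rpl10 (39.1% of promoters), and no X-box core was found in any of the 8 (10.4%). CG dinucleotides numbered 4 in the Pdha2 sequence, 8 in Rpl10l, 19 in Cstf2t and 23 in Rbmxl2, beside a median of 6 over all promoters. Motif matches describe the letters only.

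The libraries held 9967 (wildtype 1), 10153 (wildtype 2) and 12918 barcodes (knockout) with 93418341, 96001773 and 147783171 UMIs. From 27 to 30 barcode sequences were shared by each pair of libraries, at most 0.301% of a library. Clusters of few UMIs made up 55.5%, 40.6% and 64.6% of kept barcodes and were set aside. Named germ cells numbered 3163, 4378 and 3602, in 5 classes with 226 to 1876 cells per library. The class names (spermatogonia-like and so on, written short below) were rebuilt from marker genes, which can set them apart from the classes used in the study. Round spermatid clusters held no marker of their class among their 10 leading genes, though 14 markers were detected in each. Tex10, the targeted gene, had 143.4, 123.3 and 131.3 CPM in spermatogonia of wildtype 1, wildtype 2 and the knockout library, so the knockout library lay within the wildtype range there. Early spermatocytes had 142.0, 138.1 and 133.0 CPM of Tex10, late spermatocytes 60.6, 59.3 and 52.0 CPM and round spermatids 33.1, 32.4 and 20.7 CPM. No class passed the size rule given below for Tex10, so the label of the knockout library is not checked by these counts. A count at the 3′ end does not measure an exon deletion.

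Levels are given as UMIs of the gene per 1000000 UMIs of the class (CPM), for wildtype 1, wildtype 2 and the knockout library in that order. Means ± SD are over these 3 libraries (n = 3), which join both genotypes. With 3′ counting a gene's length does not scale its UMIs, but capture differs between genes, so levels of parent and retrogene compare molecules counted and not molecules present. Late spermatocytes carried the most UMIs per cell, with medians of 55562, 36110 and 72254 against 10930, 8258 and 14584 in spermatogonia. A CPM is a share of the class, so a lower CPM and fewer molecules per cell are not the same statement.

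All 4 parents were present in spermatogonia and near 0 in late spermatocytes, which hold pachytene and later meiotic cells. Pdha1 stood at 9.36, 11.8 and 12.9 CPM in spermatogonia, at 4.30, 6.83 and 3.59 CPM in early spermatocytes and at 0.0338, 0 and 0.0268 CPM in late spermatocytes. Those late values were 1, 0 and 1 UMI. No library's late value came near its spermatogonial one.

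Rpl10 had the highest CPM of the parents from spermatogonia to late spermatocytes, with the uncertainty from its shared 3′ end. It stood at 284.9, 255.1 and 259.7 CPM in spermatogonia, 102.9, 109.5 and 98.4 CPM in early spermatocytes and 2.98, 3.16 and 2.58 CPM in late spermatocytes. The 3 classes did not overlap in any library.

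Cstf2 was not called between spermatogonia and early spermatocytes. In spermatogonia its level was 65.9, 59.5 and 49.6 CPM, early spermatocytes had 39.1, 49.4 and 48.6 CPM, and late spermatocytes had 1.29, 0.985 and 0.751 CPM. Between spermatogonia and early spermatocytes its mean log2 change was -0.34 ± 0.36 (SD, n = 3). Rbmx was scarce throughout, at 18.0, 13.7 and 13.4 CPM in spermatogonia, 6.78, 9.45 and 11.7 CPM in early spermatocytes and 0.169, 0.0410 and 0.161 CPM in late spermatocytes.

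The retrogenes differed in when they were present. Pdha2 stood at 23.2, 27.1 and 25.3 CPM in spermatogonia, 166.6, 163.6 and 124.9 CPM in early spermatocytes and 271.0, 287.9 and 241.2 CPM in late spermatocytes. In round spermatids it was still at 240.7, 238.5 and 244.6 CPM, and the ranges of late spermatocytes and round spermatids overlapped. In elongating spermatids 21.4, 20.4 and 19.7 CPM were left.

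Rpl10l was highest in late spermatocytes, at 138.6, 128.1 and 144.9 CPM, after 35.9, 36.6 and 30.9 CPM in spermatogonia and 123.9, 99.2 and 116.1 CPM in early spermatocytes. Its level in round spermatids was lower, at 82.7, 86.8 and 81.5 CPM. These 3 ranges of germ cell classes from early spermatocytes to round spermatids stood apart.

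Cstf2t was the least abundant retrogene and the one with the shortest interval. It stood at 16.8, 18.0 and 17.1 CPM in spermatogonia, 44.1, 35.7 and 36.6 CPM in early spermatocytes and 36.0, 37.3 and 28.4 CPM in late spermatocytes. Round spermatids held 4.40, 3.28 and 1.98 CPM, below every earlier class.

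Rbmxl2 was the most abundant member in germ cells and was not limited to meiosis. Spermatogonia already held 302.8, 265.3 and 282.9 CPM, early spermatocytes 567.5, 471.3 and 539.3 CPM and late spermatocytes 306.3, 324.1 and 325.8 CPM. In round spermatids it stood at 249.7, 258.2 and 292.2 CPM, a range that overlapped the spermatogonial one.

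**Figure D1:**
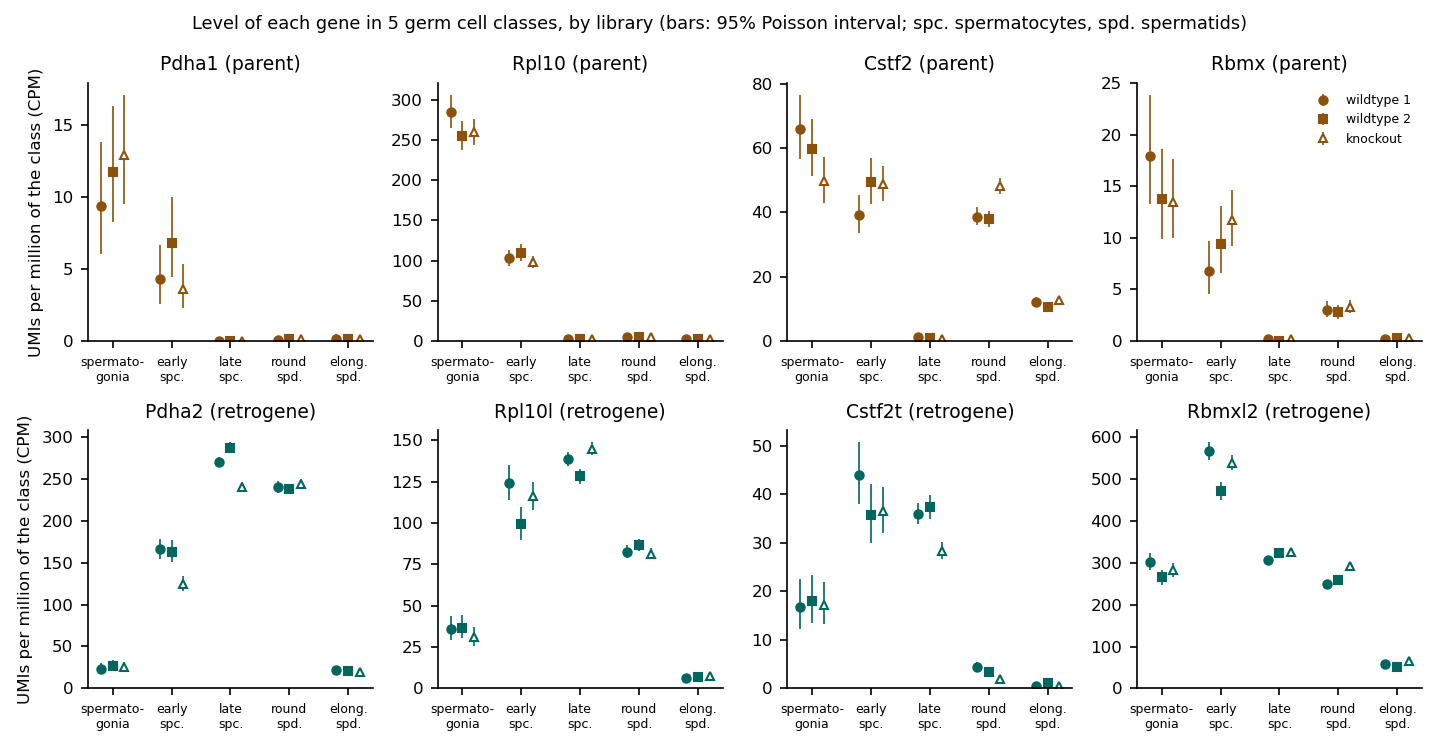
Level of each parent (top row) and retrogene (bottom row) in CPM on linear axes, with points for each library and bars for the exact 95% Poisson interval, which covers counting error only. The parents are near 0 in late spermatocytes, where Rpl10l is highest and Pdha2 overlaps its round spermatid range, and Cstf2 stands between 37.8 and 48.1 CPM again in round spermatids.

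RNA released from broken cells enters every droplet, so the retrogenes were also read in peritubular myoid cells, a contractile somatic cell. Whether somatic cells make some of these molecules themselves, Cstf2t among them, was not tested. Their levels are therefore not a pure measure of free RNA. Pdha2 stood at 37.1, 34.3 and 25.5 CPM in myoid cells, which is no lower than its spermatogonial level in any library, with 25.5 against 25.3 CPM in the knockout library, so its presence in spermatogonia is not shown here. Cstf2t stood at 15.9, 15.01 and 20.7 CPM there, a range that holds its spermatogonial levels. Rpl10l, at 12.4, 10.7 and 17.5 CPM, lay below its own levels in spermatogonia. In the 20 to 64 Sertoli cells of a library, however, Rpl10l stood at 43.1, 37.8 and 29.7 CPM, a range that holds its spermatogonial levels, so its presence before meiosis is not shown here. Rbmxl2 stood at 100.04, 98.2 and 117.0 CPM in Sertoli cells. Rbmxl2 stood at 21.2, 34.3 and 39.9 CPM in myoid cells, and the 265.3 to 302.8 CPM of spermatogonia were above both somatic classes in every library. The clusters of few UMIs that were set aside held 209.3, 197.7 and 191.9 CPM of Rbmxl2. Among the parents, Rpl10 (1283, 1136 and 1392 CPM) and Pdha1 (98.8, 98.6 and 86.1 CPM) were far higher in myoid cells than in any germ cell class.

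A stage rule was set beside the levels: a gene was called when its log2 ratio of CPM + 1 between classes was at least 1 in size and of the same sign in each library, with at least 20 CPM in at least 1 sum. From spermatogonia to late spermatocytes, 6 of the 8 members could be called, since Pdha1 and Rbmx did not reach 20 CPM. Of these, Pdha2 and Rpl10l rose, beside 23.9% of 8693 genes called higher, and Rpl10 and Cstf2 fell, beside 40% called lower. Among X-linked genes 98.7% of 231 were called lower. This contrast chose the members, and nothing is read from those counts. Rpl10 changed by -6.10 ± 0.14, Cstf2 by -4.88 ± 0.04, Pdha2 by 3.35 ± 0.14 and Rpl10l by 1.96 ± 0.21 (mean log2 ± SD, n = 3). Pdha1 and Rbmx had mean log2 changes of -3.59 ± 0.23 and -3.83 ± 0.19, which the added 1 CPM understates.

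The other retrogenes were not called. Cstf2t had log2 changes of 1.052, 1.014 and 0.70 in the 3 libraries and missed the size in the knockout library alone, while Rbmxl2 had 0.02, 0.29 and 0.20. Per cell, both had more UMIs in late spermatocytes. Mean UMIs per cell of Cstf2t were 0.213 ± 0.053 in spermatogonia and 1.93 ± 0.322 in late spermatocytes, and those of Rbmxl2 were 3.51 ± 1.00 and 18.6 ± 5.34 (n = 3). Parents went the other way on this scale too: Rpl10 had 3.28 ± 0.866 and 0.166 ± 0.0308 UMIs per cell, and Cstf2 0.706 ± 0.131 and 0.0575 ± 0.0175.

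Between spermatogonia and early spermatocytes, Pdha2 and Rpl10l rose (mean log2 2.53 ± 0.27 and 1.68 ± 0.24), with 12.7% of 8244 genes called higher, and Rpl10 fell (-1.36 ± 0.13), with 15.7% called lower. From early to late spermatocytes Rpl10 (-4.75 ± 0.05) and Cstf2 (-4.54 ± 0.36) fell, and 34.5% of 7912 genes did. No retrogene was called in that step, where 19.4% of genes were called higher.

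Each retrogene's share of its pair, retrogene UMIs over the sum of both, gives the handover without scaling. In spermatogonia it was 11.2%, 12.6% and 10.6% for Rpl10l and 20.4%, 23.2% and 25.7% for Cstf2t. In early spermatocytes the pairs were near balance, at 54.6%, 47.5% and 54.1% for Rpl10l and 53.0%, 42.0% and 43.0% for Cstf2t. These class values depend on the processing, and with a stricter cell filter the means became 87.9% and 80.2%. The cause of that shift was not tested.

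By late spermatocytes the retrogene held nearly all molecules of each pair. The lowest library stood at 99.99% for Pdha2 (95% interval 99.93 to 100), 97.6% for Rpl10l (97.0 to 98.1), 96.6% for Cstf2t (95.3 to 97.5) and 99.945% for Rbmxl2 (99.87 to 99.98). Intervals are exact Clopper-Pearson intervals and cover counting error only. Rbmxl2 also held 94.4%, 95.1% and 95.5% in spermatogonia. In Sertoli cells, however, Rbmxl2 held 90.6%, 88.1% and 89.4% of the pair, and the part of free RNA in the spermatogonial share was not tested. Pdha2 held 71.3%, 69.7% and 66.2% in spermatogonia, where its level did not exceed that in myoid cells.

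The sum of parent and retrogene did not stay level. For Rpl10 and Rpl10l together spermatogonia held 301.05 ± 17.1 CPM, early spermatocytes 216.7 ± 9.22, late spermatocytes 140.1 ± 8.18 and round spermatids 88.9 ± 2.58. In UMIs per cell the sums of these classes were 3.70 ± 0.939, 2.16 ± 0.542, 8.25 ± 2.73 and 2.88 ± 0.778. For Pdha1 and Pdha2 it went from 36.6 ± 3.49 to 266.7 ± 23.6 CPM between spermatogonia and late spermatocytes. Per cell that sum was 0.451 ± 0.133 and 15.3 ± 3.004 UMIs. The Cstf2 and Cstf2t sum had 75.7 ± 8.17, 84.5 ± 1.14, 34.9 ± 5.03 and 44.8 ± 4.71 CPM over those 4 classes, but 0.918 ± 0.174, 0.842 ± 0.204, 1.99 ± 0.337 and 1.49 ± 0.596 UMIs per cell, so late spermatocytes were lower than early ones in CPM and higher per cell. For Rbmx and Rbmxl2 the sum was 298.7 ± 21.0, 535.3 ± 48.7, 318.9 ± 10.8 and 269.7 ± 22.7 CPM, or 3.69 ± 1.04, 5.39 ± 1.61, 18.6 ± 5.34 and 8.90 ± 3.34 UMIs per cell.

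To time the handover, the 11143 germ cells were ordered by diffusion pseudotime, a measure of distance from spermatogonia through neighbouring cells, and split into 20 bins of equal cell number. Genes of the pairs were left out of the ordering. Landmark genes place the bins. Stra8, which marks entry into meiosis, was highest in bin 2, and Spo11, of recombination, in bin 3. Sycp1, of the synaptonemal complex, was highest in bin 4 and Piwil1, of pachytene cells, in bin 5. Acrv1, of the acrosome, was highest in bin 10 and Tnp1, which replaces histones, in bin 15. Ccna1, used here as a marker of late spermatocytes, was highest in bin 8 (377.6 CPM), where all cells were classed as round spermatids. The border between these 2 classes is therefore uncertain.

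Parents did not decline together. Pdha1 was highest in bin 1 in each library (11.1, 14.8 and 14.8 CPM) and Rpl10 in bin 2 (330.6, 271.6 and 269.3 CPM). For Pdha1 these were 24, 34 and 48 UMIs, and bin 3 held 9.57, 13.3 and 6.10 CPM from 9, 12 and 10 UMIs. Its highest bin is not settled by such counts. Cstf2 and Rbmx were highest in bin 3, at 102.1, 123.3 and 121.9 CPM and at 26.6, 30.002 and 36.0 CPM. In bin 3 Rpl10 had already come down to 184.0, 173.3 and 147.5 CPM.

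All 4 parents were low in bins 4 to 7. Cstf2 stood at 4.65, 5.08 and 8.14 CPM in bin 4, and Rbmx at 1.16, 1.52 and 2.44 CPM. Rpl10 was still at 31.8, 35.6 and 45.1 CPM in bin 4 and at 2.80, 3.68 and 3.92 CPM in bin 5. X-linked genes together followed the same course, from 2.25% of all UMIs in bin 3 (lowest library 2.22%, highest 2.28%) to 0.463% in bin 4 and 0.0369% in bin 6.

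Retrogene levels were up in bin 4, where the parents were low. Pdha2, Rpl10l and Cstf2t were highest in bin 5 in every library, with 368.6, 387.7 and 316.8 CPM, 211.9, 191.0 and 216.2 CPM, and 58.4, 57.7 and 49.0 CPM. Rbmxl2 was highest in bin 4 in wildtype 1 (701.4 CPM) and in bin 5 in wildtype 2 and the knockout library (631.5 and 770.2 CPM), with close values in both bins. Pdha2 was above its bin 1 level earlier than the others: it stood at 19.0, 23.0 and 20.04 CPM in bin 1, 38.8, 40.6 and 37.1 CPM in bin 2 and 59.6, 70.0 and 51.2 CPM in bin 3. Sertoli cells held 87.97, 77.4 and 56.6 CPM of Pdha2, so the part of free RNA in its levels of bins 1 to 3 was not tested. Rpl10l stood at 35.7, 40.3 and 33.3 CPM in bin 1 and at 36.2, 31.1 and 40.2 CPM in bin 3, and then at 167.7, 148.9 and 166.1 CPM in bin 4.

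**Figure D2:**
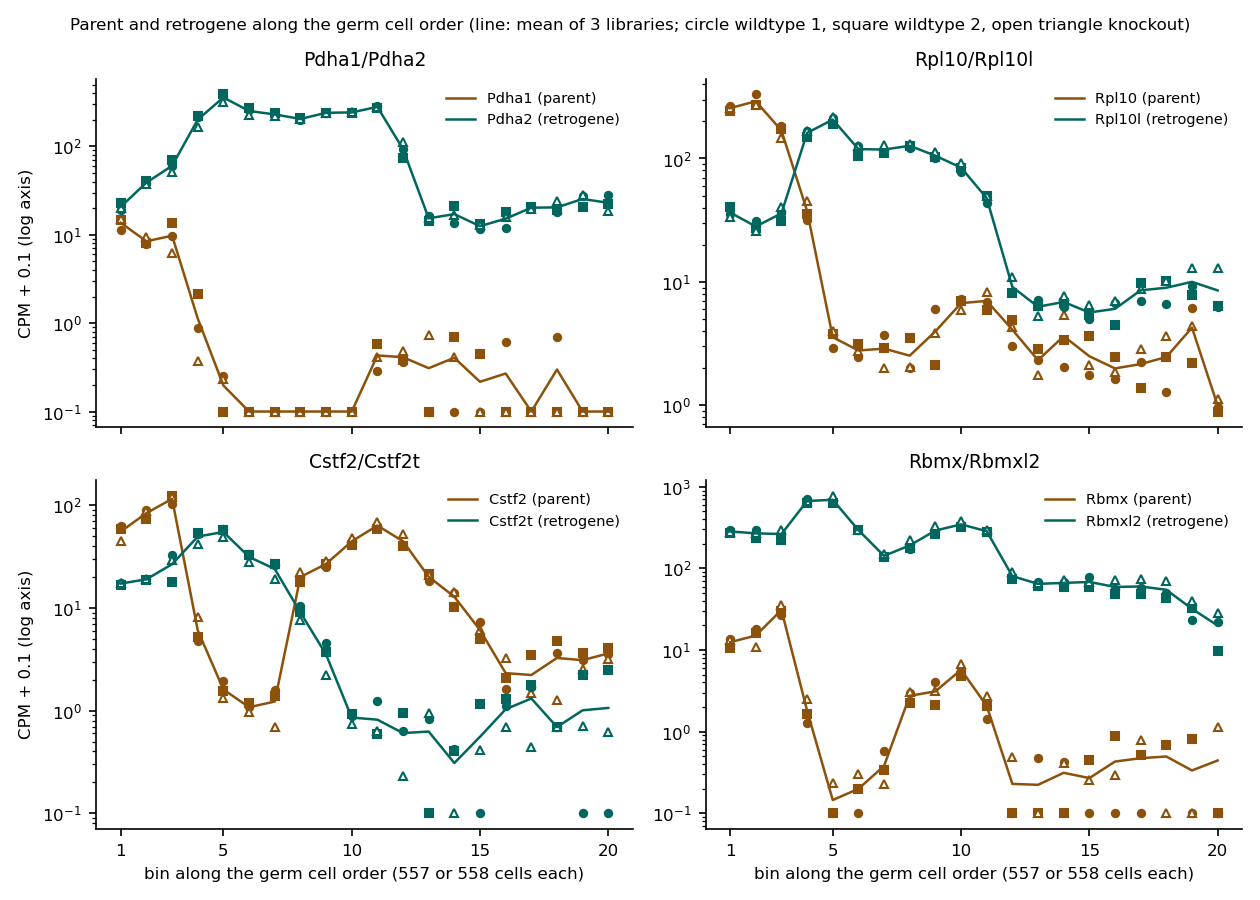
CPM + 0.1 on a log axis against the bin of the germ cell order, brown for the parent and green for the retrogene, with a line for the mean of 3 libraries and a symbol for each library. Parent and retrogene cross between bins 3 and 4 for Rpl10 and Cstf2, and Cstf2 crosses back between bins 7 and 8.

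The crossing was sharp for the pairs that had one. The Rpl10l share was 16.4%, 15.2% and 21.4% in bin 3 and 84.1%, 80.7% and 78.7% in bin 4. For Cstf2t it was 24.4%, 12.6% and 19.4% in bin 3 and 91.9%, 91.3% and 83.9% in bin 4. Rpl10l then kept more than 50% of its pair in each of the 17 bins from bin 4 in every library, but Cstf2t did so in 4 bins only, 4 to 7, in every library. Shares in the last bins rest on few UMIs, such as 9 of Rpl10l and 6 of Rpl10 in bin 19 of wildtype 1. Pdha2 and Rbmxl2 were above 50% in all 20 bins. Both were above 50% in Sertoli cells too, where Pdha2 held 94.4%, 91.1% and 89.4% of its pair.

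The same step was looked for in single cells. Cells were thinned to 3000 UMIs each, which left out 7 to 42 cells a bin in bins 3 and 4, and the 3 libraries were joined. Ranges in brackets cover the counting of the joined cells only. Cells are not replicates, so these ranges do not measure the spread between libraries or mice. Cells with UMIs of Rpl10 but not of Rpl10l made up 35.3% of 515 cells in bin 3 (31.2 to 39.6) and 10.7% of 550 in bin 4 (8.27 to 13.6). Cells with Rpl10l but not Rpl10 made up 7.18% (5.11 to 9.77) and 27.6% (23.9 to 31.6). Cells with both made up 2.72% and 3.64%, and without thinning 12.8% and 20.5%. At 3000 UMIs most cells held neither gene, and the share with both is not read further. In myoid cells, the somatic class read above, 4.65% of 258 cells held an Rpl10l UMI after thinning (8.91% before). Their median was 6226 UMIs before thinning, against 6084 in bin 3 and 11568 in bin 4. In bin 3 the share with any Rpl10l UMI was 9.90% (7.46 to 12.8), and in bin 4 it was 31.3% (27.4 to 35.3).

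**Figure D3:**
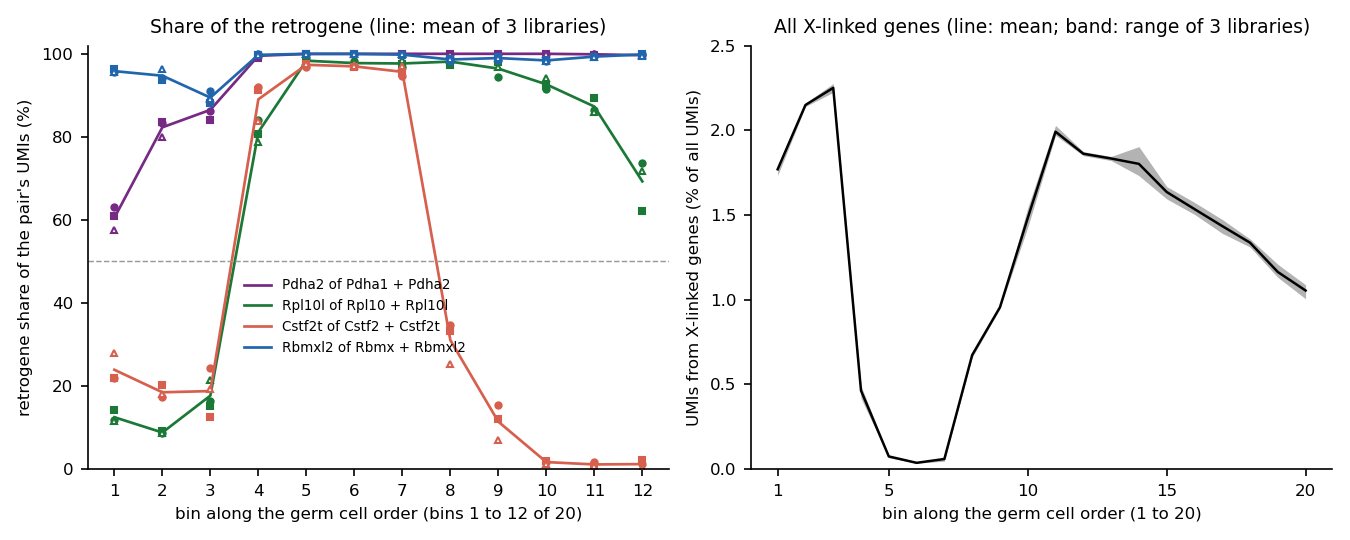
Left, retrogene share of the pair's UMIs in percent for bins 1 to 12, with a symbol per library and a dashed line at 50%. Right, UMIs of all X-linked genes in percent of all UMIs over the 20 bins, which fall to 0.0369% in bin 6 and are back at 1.99% in bin 11.

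After meiosis the parents parted. Cstf2 rose from late spermatocytes to round spermatids, to 38.7, 37.8 and 48.1 CPM (mean log2 4.41 ± 0.36), with 28.3% of 7662 genes called higher. Of 128 X-linked genes 99.2% were called higher. X-linked genes were so low in late spermatocytes that few, Cstf2 included, could reach 20 CPM except through round spermatids. Nothing is therefore read from that share. Cstf2t fell in the same step (-3.08 ± 0.27), with 32.6% called lower. Its share was thereby 10.2%, 7.97% and 3.95% in round spermatids, below the spermatogonial share in each library.

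Along the order Cstf2 was at 19.5, 18.0 and 22.4 CPM in bin 8 and reached 62.7, 59.2 and 68.8 CPM in bin 11. All cells of bin 8 were classed as round spermatids, though Ccna1 was highest there. Rbmx came back weakly: it stood at 3.05, 2.77 and 3.30 CPM in round spermatids, beside 249.7 to 292.2 CPM of Rbmxl2, and peaked there in bin 10 at 5.54, 4.70 and 6.65 CPM. Rpl10 stood at 5.31, 5.03 and 5.41 CPM in round spermatids, above its late spermatocyte range and far below the spermatogonial one.

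Pdha1 was not detected through the middle of the order. Over bins 6 to 10 it had 0 UMIs of 37008941, 36920953 and 47712751, and a count of 0 allows up to 0.0811, 0.0813 and 0.0629 CPM. Cstf2 had 407, 564 and 611 UMIs in the same cells and Rbmx 59, 60 and 79. In round spermatids as a class Pdha1 had 1, 4 and 5 UMIs.

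The parents were set beside the X chromosome. Of X-linked genes, 210 had a mean of at least 20 CPM in spermatogonia. Their median log2 change to late spermatocytes was -5.05, while that of 6719 autosomal genes at the same level was -0.92. In round spermatids the median X-linked gene stood at 3.86% of its spermatogonial level and the median autosomal gene at 28.7%. Of the X-linked genes 17.1% stood at 50% or more, and of the autosomal genes 39.2%. Cstf2 stood at 71.2% of its spermatogonial level, and 30 of the 210 X-linked genes were higher. Rbmx stood at 20.2%, Rpl10 at 1.97% and Pdha1 at 1.09%, of which only Rpl10 belongs to the 210 genes. This order is a description and was not tested.

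**Figure D4:**
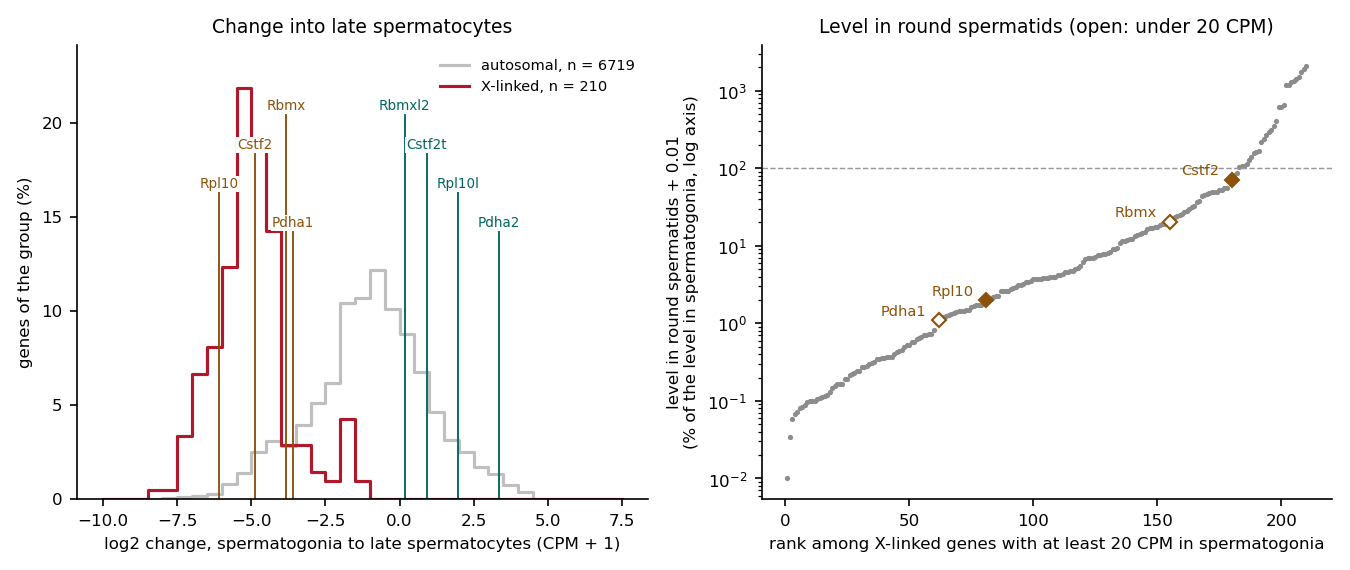
Left, percent of X-linked (red) and autosomal (grey) genes by mean log2 change from spermatogonia to late spermatocytes, with a line for each parent (brown) and retrogene (green). Right, level in round spermatids in percent of the level in spermatogonia, on a log axis, for the 210 X-linked genes by rank, with the parents as diamonds, Cstf2 highest at 71.2% and Pdha1 lowest at 1.09%.

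The retrogenes also left at different times. Pdha2 kept 239.8 ± 2.14 CPM in bin 9 and 279.6 ± 9.58 CPM in bin 11 before 93.0 ± 19.4 CPM in bin 12, where elongating spermatids began. Rpl10l declined over the round spermatid bins, from 126.7 ± 4.41 CPM in bin 8 to 47.6 ± 3.46 CPM in bin 11. Rbmxl2 had 2 maxima: after bin 5 it stood at 139.6, 136.5 and 150.9 CPM in bin 7 and again at 335.8, 322.5 and 380.6 CPM in bin 10. From round to elongating spermatids Pdha2, Rpl10l, Cstf2 and Rbmxl2 fell, and 62.6% of 6030 genes did.

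Genes with the most similar course were found by Pearson correlation of log2(CPM + 1) over the 20 bins of the 3 libraries (60 points that share libraries and depth), among 11069 genes. Most of those named for the parents were X-linked, while 1084 of all 32285 genes of the series are. Pdha1 was nearest to Mbnl3 and Tab3 (r = 0.98 and 0.97), Rpl10 to Bhlhb9, Sms and Rhox13 (0.98, 0.98 and 0.97), and Cstf2 to Cul4b, Emd and the autosomal Slc25a25 (0.95, 0.95 and 0.92). Rbmx was nearest to Mbtps2, Usp26 and the autosomal Tex15 (0.96, 0.95 and 0.95).

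Those named for the retrogenes were all autosomal, as most genes are, and nothing is read from that. Pdha2 was nearest to Gm5136, B9d1 and 1700020N01Rik (r = 0.97, 0.97 and 0.96), Rpl10l to Mrpl53 and Sephs2 (0.98 and 0.97), Cstf2t to Ufsp2, Mtx2 and Rsrp1 (0.98, 0.97 and 0.97), and Rbmxl2 to Med10, Cct2 and Nup88 (0.95, 0.95 and 0.93). Among the members themselves the closest were Pdha1 with Rpl10 (0.93) and Pdha2 with Rpl10l (0.89), while Cstf2 and Cstf2t had -0.04.

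Partners of the pairs were followed as fixed lists over the step from spermatogonia to late spermatocytes. The median log2 change of all genes tested was -0.61, and 23.9% were called higher and 40% lower. Of 13 genes of the pyruvate dehydrogenase complex and its regulators, 11 reached 20 CPM, and 2 rose and 4 fell (median -0.03). Dlat, the E2 enzyme, rose from 29.97 to 132.3 CPM, and Pdk2, an inhibitory kinase of the complex, rose from 12.1 to 34.4 CPM. Pdk3, another such kinase and X-linked, fell from 88.4 to 1.37 CPM and stood at 93.1 CPM in round spermatids, a return like that of Cstf2. Mpc2, of the mitochondrial pyruvate carrier, was the highest of the list, at 1656 CPM in round spermatids.

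Of 19 cleavage and polyadenylation factors, 18 were tested, and 1 rose and 5 fell (median -0.87), neither share above that of all genes. Papolb, a poly(A) polymerase of spermatids and itself a gene without introns, rose from 35.4 to 194.4 CPM, while Papola, its somatic relative, fell from 288.0 to 102.2 CPM. Cstf1 and Cstf3, the other subunits of the factor that holds Cstf2 or Cstf2t, were not called, at 35.9 and 68.3 CPM and at 79.9 and 37.3 CPM. From late spermatocytes to round spermatids 6 of 17 tested genes of the list fell, Cstf3 among them (to 10.5 CPM), and Cpsf4l rose (median 0.07). Those counts stand beside 32.6% and 28.3% of all genes, so the share that fell is near the background.

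Of 13 RNA-binding proteins related to Rbmx, 11 were tested, and 1 rose and 5 fell (median -0.74). Khdrbs3 rose from 72.5 to 266.2 CPM, and Rbmx2, which is X-linked, fell from 125.6 to 0.510 CPM. Rbmxl1, a further intronless relative of Rbmx on chromosome 8, was not called, at 40.7 and 25.0 CPM. Into round spermatids 9 of 10 tested genes of this list fell (median -2.35), beside 32.6% of all genes (median -0.40), and Rbmxl2 was not called.

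Of 15 ribosomal protein paralogs, Rpl10 and Rpl10l included, 14 were tested, and 2 rose and 7 fell (median -1.29). Of all genes, 23.9% were called higher and 40% lower. Rpl10l is among those that rose and Rpl10 among those that fell. Both were chosen by this contrast, so nothing is read from these counts. The other riser was Rpl39l, at 358.1 and 1225 CPM, the autosomal copy of the X-linked Rpl39, which fell from 302.4 to 2.06 CPM. Rps4x and Rpl36a, both X-linked, fell as well.

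Another 14 pairs of an X-linked parent and an autosomal retrogene were set beside the 4. Of their parents 10 were tested and all 10 fell (median log2 -5.80), in a step where 98.7% of X-linked genes did. Each of the 10 reached the level for a call through spermatogonia only, so a fall was nearly fixed in advance. Nothing is read from that count. Of 12 retrogenes tested 7 rose and 2 fell (median 1.62), beside 23.9% and 40% of all genes. The risers were Pgk2, Cetn1, Gk2, Prps1l1, Fam50b, Rpl39l and Timm8a2. By early spermatocytes 1 of 11 tested retrogenes of these pairs, Rpl39l, had risen, a share near the 12.7% of all genes. Of the parents only 2, Utp14a and Ubl4a, reached the level for a call from late spermatocytes to round spermatids. Both rose, to 52.0% and 32.6% of their spermatogonial levels, beside 71.2% for Cstf2. Cetn2, Prps1, Pgk1 and Timm8a1 were too low to be called, with mean log2 changes of 3.01, 2.47, 1.64 and 1.26. The remaining parents, also too low, had smaller changes, some of them downward. How many parents returned is therefore not read from the calls.

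In the knockout library no member passed the size rule. That rule asks for a log2 ratio of CPM + 1 of at least 1 against each wildtype library, of 1 sign, of no less than 2 times the size by which both wildtype libraries differ, with 20 CPM or more in a library. Of 40 member and class values 21 could be called, and 0 were, so no share of members stands beside the background. With 1 knockout library there is no test, and no p-value is given. Genes past the rule made up 1.35% of those tested in elongating and 1.26% in round spermatids, 0.639% and 0.271% in late and early spermatocytes, and 0.351% in spermatogonia. In simulated libraries the rule found 197 to 200 of 200 genes changed 3-fold but 34 to 48 of 200 changed 2-fold, so a change of 2-fold or less would mostly be missed. The simulated wildtype libraries differed by counting noise only. Wildtype 1 and wildtype 2 differed by more than that, so the recovery of 3-fold changes in the real libraries is not known.

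The mean log2 ratios of the 21 values lay between -0.40 and 0.32, with 8 below the range of the wildtype libraries, 7 within it and 6 above it. Pdha2 in early spermatocytes stood at 124.9 CPM in the knockout library and 165.1 ± 2.18 CPM in the wildtype (SD, n = 2). Cstf2t in late spermatocytes stood at 28.4 and 36.7 ± 0.949 CPM. Cstf2 in spermatogonia stood at 49.6 and 62.7 ± 4.49 CPM, and in round spermatids at 48.1 and 38.3 ± 0.603 CPM. By mean log2 ratio these 4 were the largest among the 21.

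Retrogene shares of the knockout library differed from the wildtype mean by 5.15 percentage points or less in germ cells. The largest difference was for Cstf2t in round spermatids, 3.95% in the knockout library (3.03 to 5.06) against 10.2% (8.28 to 12.4) and 7.97% (6.41 to 9.77). There Cstf2t had 88, 84 and 60 UMIs in wildtype 1, wildtype 2 and the knockout library. Its level of 1.98 to 4.40 CPM is too low for the size rule. The libraries also differed in how round spermatids spread along the order. Bin 8, where the Cstf2t share was 34.6%, 33.3% and 25.2%, held 186, 256 and 115 cells. Round spermatids numbered 640, 1083 and 710. The part of this spread in the class share was not tested. The handover of Rpl10 and Cstf2 fell between bins 3 and 4 in the knockout library as in both wildtype libraries.

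**Figure D5:**
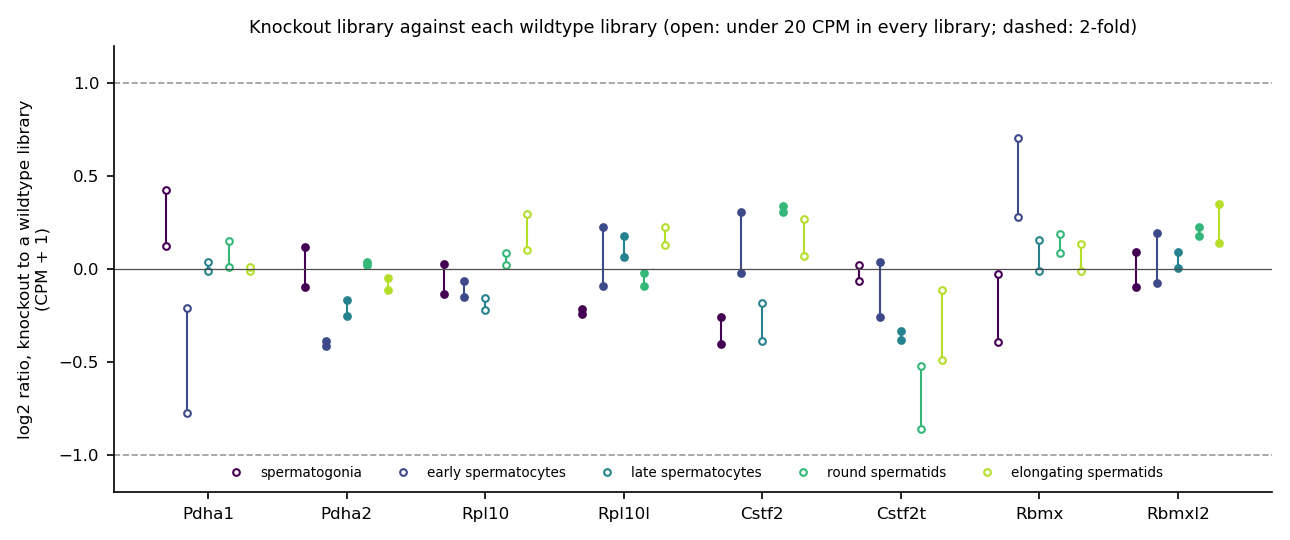
Log2 ratio (CPM + 1) of the knockout library to wildtype 1 and to wildtype 2, joined by a line, for each member in 5 germ cell classes, with open symbols where no library reached 20 CPM and dashed lines at 2-fold. Every value lies inside the 2-fold lines, and the filled points lie between -0.41 and 0.35.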

How the data were processed

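Per the file headers and the submitters' processing notes, the authors made the UMI counts per gene and barcode with Cell Ranger 4.0.0 on mm10, from 10x 3′ libraries (kit version 3.1). The deposited values were raw counts. The annotation and the use of strand are not given in the sources used here. Barcodes with at least 1000 UMIs, 500 genes and at most 10% mitochondrial UMIs were kept. The automatic threshold of Scrublet marked at most 1 barcode a library, so the top 8% of scores were left out. In scanpy 1.11.5, 2000 variable genes without the pair genes, 30 components and 15 neighbours gave 28 Leiden clusters (leidenalg 0.10.2, resolution 1). A cluster took its name from at least 3 detected markers. Clusters whose median UMI total was under 3 times the lowest total deposited for the library were left out, a limit chosen with the data known. The order used diffusion pseudotime (30 neighbours, 14 components). Since cells are no replicates, the UMIs of each class were added up within a library, and the stage and size rules stood in place of tests. The size rule was tested on simulated data with counting noise only. Wildtype 1 and wildtype 2 differed beyond sampling noise (chi-square per degree of freedom 17.7 over 22535 genes). Gene positions are from GENCODE M21, and promoters from RefSeq, matched for all 8 members. Members, lists and motifs were chosen with earlier results of these data known. All 8 members are named, with Tex10, up to 3 most similar genes of each member (some are not reported here), and list genes that passed a rule or had the highest level, beside a few others chosen after their values were seen (Cstf1, Cstf3, Papola and Rbmxl1). Alternatives changed scaling, filters, doublets, clustering features, bins, pseudocount and libraries. Leaving out the knockout library for the retrogene shares was added after seeing the data.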

Additional observations from a re-analysis of the deposited data

Results flagged for a closer look

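Pdha2 had a log2 change from late spermatocytes to round spermatids of 0.020 in the knockout library and of -0.17 and -0.27 in wildtype 1 and wildtype 2. It is listed because the knockout library and both wildtype libraries lay on opposite sides of 0. The difference was not tested, since there is 1 knockout library. The levels behind it were 241.2 and 244.6 CPM in the knockout library, 271.0 and 240.7 CPM in wildtype 1 and 287.9 and 238.5 CPM in wildtype 2.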

How the results depend on the processing

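No paired analysis was possible because the knockout arm is 1 library, which shares fewer than 2 replicate numbers with the wildtype. Stage changes were taken within each library. Pdha2 and Rpl10l kept their rise and Rpl10 and Cstf2 their fall from spermatogonia to late spermatocytes under every alternative run. With UMIs per cell in place of CPM, Cstf2t (3.06) and Rbmxl2 (2.40) were called as well. Rbmx reached the level for a call without the 50 highest genes (-4.06) and with the stricter cell filter (-3.95). Leaving out 1 library at a time, Cstf2t lay between 0.85 and 1.03, and only without the knockout library was it called. The position from which Rpl10l stays above 50% of its pair was 15% of the order. It became 79.2% with 40 bins, 33.3% without doublet removal and 26.7% with the stricter filter. First crossings lay at 17.5%, 15% and 5 to 10%, and 1 or 2 later bins of some libraries at or below 50% set these values. No knockout value of a member was called under any alternative. Counts of all genes past the size rule (26, 19, 37, 73 and 42 in spermatogonia, early and late spermatocytes, round and elongating spermatids) were 229, 109, 106, 209 and 127 with no CPM minimum, 90, 61, 88, 209 and 103 at 1.5-fold, and 8, 5, 6, 20 and 13 at 4-fold. UMIs per cell gave 17, 9 and 73 in the first 3 classes, the stricter filter 38 in early spermatocytes, and leaving out the 50 highest genes 74 in elongating spermatids. Without 1 wildtype library the counts were 44 to 59 in spermatogonia, 25 to 31 in early spermatocytes and 81 to 129 in round spermatids. Of the retrogene shares under alternatives, 32 values moved by more than 1 SD and 188 did not. For early spermatocytes Rpl10l and Cstf2t went to 87.9% and 80.2% with the stricter filter, 70.3% and 62.8% when cells were classed singly on marker scores, and 81.4% and 73.8% when clustered without X-linked genes. The cause was not tested. Depth limits Pdha1 in late spermatocytes, where it had 1, 0 and 1 UMI.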
